A study of Saccharomyces cerevisiae with 16 samples.

Results

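The ribosome-bound chaperones of nascent chains in budding yeast (Saccharomyces cerevisiae) were followed through 16 libraries of ribosome footprints and mRNA. Members were chosen by gene name, not by their values: SSB1 (YDL229W), SSB2 (YNL209W), SSZ1 (YHR064C), ZUO1 (YGR285C), EGD1 (YPL037C) and EGD2 (YHR193C). These 6 genes are held by 5 of the 5574 rows of the expression tables, because SSB1 and SSB2 share 1 merged row. All 5 rows passed the filter on low values in both assays.

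Newly made proteins leave the ribosome through a tunnel in the large subunit, and chaperones docked near its exit are the first to meet them. Ssb1 and Ssb2 are Hsp70 chaperones that bind the emerging chain. Their partner is the ribosome-associated complex (RAC), a dimer of Zuo1, the J protein that stimulates ATP hydrolysis by Ssb, and Ssz1, an atypical Hsp70. The nascent polypeptide-associated complex (NAC) is a dimer of an alpha subunit, encoded by EGD2, and a beta subunit, encoded by EGD1 or by its rarely expressed relative BTT1.

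All strains were BY4741 grown in YPD, a rich medium, to an OD600 of 0.5 in cultures of 500 ml. The groups were wild type and strains labelled can1Δ, rpl22aΔ and tor1Δ. CAN1 encodes the permease that takes up arginine, RPL22A one of the large-subunit ribosomal proteins, and TOR1 a kinase through which TORC1 signals growth. Footprints, the mRNA pieces that ribosomes shield from RNase I, came from 3 wild-type, 3 can1Δ, 2 rpl22aΔ and 2 tor1Δ libraries. Poly(A)-selected mRNA came from 2 wild-type, 2 can1Δ, 1 rpl22aΔ and 1 tor1Δ libraries. Cycloheximide, which stalls elongating ribosomes, was in the lysis buffer of every sample. The labels do not say whether replicates were separate cultures or whether a deletion is represented by more than 1 clone, so a p-value reflects the spread of these libraries alone, which may be technical.

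Footprint libraries held 2523445 to 8697633 reads and mRNA libraries 7645935 to 26588850, as recovered from the deposited values. Listed rows took 76.4 to 81.7% of the reads in footprint libraries and 54.4 to 61.4% in mRNA libraries. The deleted genes matched their labels. CAN1 footprints averaged 48.8 scaled RPKM in wild type and 0.167 in can1Δ, RPL22A footprints 3274 and 10.1 in rpl22aΔ, and TOR1 footprints 6.05 and 0.053 in tor1Δ. RPKM is reads per kilobase of listed length per 1e6 reads, and "scaled" means divided by a library factor that removes differences in composition. The samples are bulk cultures, in which fewer cells of a kind and less RNA per cell cannot be told apart.

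All 6 coding sequences are single segments in genome build R64, without an intron. SSB1 lies at chrIV:44065-45906 and SSB2 at chrXIV:252059-253900, both on the plus strand. The others lie on the minus strand: SSZ1 at chrVIII:225525-227141, ZUO1 at chrVII:1061852-1063153, EGD1 at chrXVI:481428-481901 and EGD2 at chrVIII:487712-488236. Their coding lengths fall from 1842 bases for SSB1 and SSB2 through 1617 for SSZ1 and 1302 for ZUO1 to 525 for EGD2 and 474 for EGD1. NAC subunits are thus encoded by shorter genes than the others, which bears on the rpl22aΔ comparison.

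The Ssb genes are near-identical copies, and the deposited table holds them as 1 row. Of 1842 coding bases 48 differ (97.4% identity). The differences fall in 43 codons, of which 4 code for another amino acid. The longest run without a difference spans 563 bases, from coding base 466 to 1028. Of all 28-base windows, a length near that of a footprint, 60.6% are the same in both genes, and of 50-base windows, the shortest mRNA fragments, 43.2%. The 60 bases with the most differences (11, in capitals) are shown 5′ to 3′ because the copies differ most there. They span coding bases 1248 to 1307, at chrIV:45312-45371 for SSB1 and chrXIV:253306-253365 for SSB2. The differences are spread unevenly, and a 28-base read from the middle of this stretch can still match both copies.
SSB1: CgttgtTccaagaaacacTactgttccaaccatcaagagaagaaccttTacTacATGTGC
SSB2: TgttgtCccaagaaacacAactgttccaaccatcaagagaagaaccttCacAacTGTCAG

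The deposited row does not split the copies, so nothing can be said of SSB1 apart from SSB2. Its listed length, 3484 bases, is the sum of both copies less 100 bases each. Its RPKM is therefore the mean level per copy if each read was counted once, and sums over both copies are named as such. How reads that match both copies were counted is not stated, and the levels, ranks and ratios of this row depend on it.

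The start codons sit in like surroundings. The bases from 12 before the start codon to 6 from its first base are shown 5′ to 3′ from R64, with the base at position -3 and the start codon in capitals, because an adenine at -3 is the best-known mark of yeast start sites. They lie at chrIV:44053-44070, chrXIV:252047-252064, chrVIII:227136-227153, chrVII:1063148-1063165, chrXVI:481896-481913 and chrVIII:488231-488248, in the order listed.
SSB1: taattgaacAaaATGgct
SSB2: tcctcattaAcaATGgct
SSZ1: attacaaatAagATGtcc
ZUO1: acaagagtaAcgATGttt
EGD1: tcataattcAtaATGcca
EGD2: actcaattgAtaATGtct

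All 6 genes carry an adenine at -3. Among 5788 open reading frames 61.0% do. Among rows with 1 gene and 1 coding segment, 83% of the 100 with the highest wild-type footprint level do. Merged rows, SSB1/SSB2 included, and genes with more than 1 coding segment are left out of these 100. Codon use also sets the members near the top of the genome. The codon adaptation index, scored against 57 ribosomal protein genes, was 0.856 for SSB1 (rank 26 of 5788) and 0.818 for SSB2 (rank 67), against a median of 0.255. It was 0.696 for EGD1, 0.651 for EGD2, 0.595 for ZUO1 and 0.576 for SSZ1, which is rank 283. BTT1, the other beta subunit gene, scored 0.232 and ranked 4202.

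Upstream of the genes, 5 short motifs known from yeast promoters were searched on both strands in the 500 bases before the start codon. AAAATTTT, the core of the ribosomal RNA processing element, lay before SSB1, SSB2, EGD1 and EGD2, and before 12.6% of all 5788 genes. The matches are shown 5′ to 3′ on the gene's strand, with the motif in capitals, because they are the one searched element that Ssb and NAC genes share at a like distance. That distance is 162 bases for SSB1, 136 for SSB2, 164 for EGD1 and 134 for EGD2. The windows are chrIV:43893-43920, chrXIV:251913-251940, chrXVI:482048-482075 and chrVIII:488353-488380.
SSB1: aaaaaaaagaAAAATTTTtcatcttcgc
SSB2: atgagataaaAAAATTTTtcaactgcta
EGD1: aaaaaagcagAAAATTTTtgaatttttt
EGD2: tttttttttgAAAATTTTtcatcgccga

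GATGAG, the PAC core, lay before SSB1, SSB2, SSZ1 and ZUO1, and before 27.9% of all genes. The heat shock element cores TTCNNGAA and GAANNTTC, which overlap each other when the element is repeated, lay before SSB2 (21.4% of all genes) and before EGD1 and EGD2 (19.2%), in that order. ACCCNNACA, a Rap1 core, lay before EGD1 and EGD2 (5.44%). A match describes letters only and is not a binding site.

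In wild type all members were among the most translated genes. The SSB1/SSB2 row held 2602, 2767 and 2637 scaled RPKM of footprints in the 3 libraries, a mean of 2669 ± 86.7 (SD, n = 3) per copy and rank 72 of 5574 rows. EGD2 averaged 1903 ± 110 (rank 103) and EGD1 1616 ± 158 (rank 111). Both RAC subunits were lower, ZUO1 at 1015 ± 33.9 (rank 152) and SSZ1 at 742 ± 41.8 (rank 182). No neighbours in this order overlapped among the wild-type libraries. BTT1 stood far below at 10.8 ± 1.05, rank 3516, from 9 to 35 reads a library. The 5 rows together took 1.1003 to 1.3191% of all footprint reads.

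The mRNA order was different. EGD1 was the highest, with 1508 and 1319 scaled RPKM in the 2 wild-type libraries. The SSB1/SSB2 row followed with 1247 and 846, and EGD2 with 984 and 848. These last ranges overlapped. ZUO1 held 684 and 685, and SSZ1 was the lowest with 355 and 320. The 5 rows took 0.485 to 0.666% of mRNA reads.

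**Figure D1:**
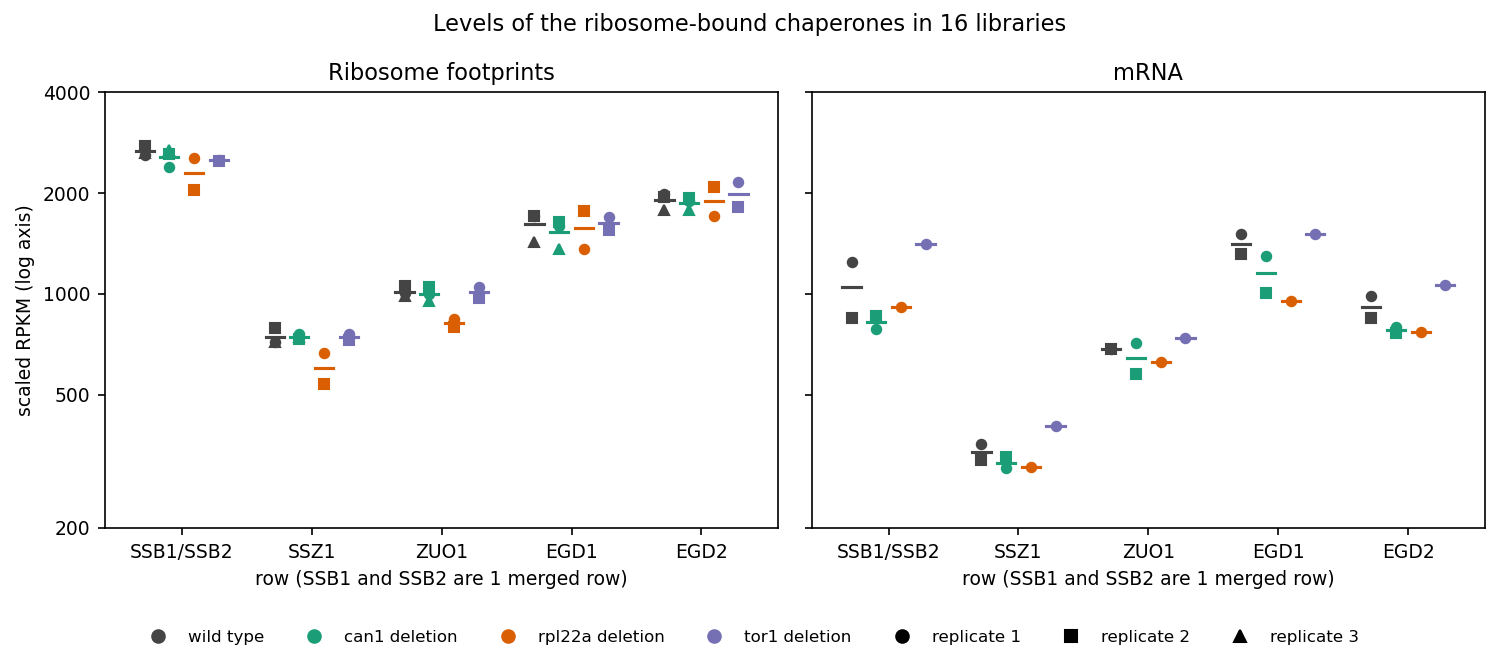
Scaled RPKM (log axis) of the 5 rows in each of the 10 footprint libraries (left) and 6 mRNA libraries (right). Points are libraries, coloured by strain and shaped by replicate number, and bars are strain means. The highest footprint level of a row is 1.26 (EGD2) to 1.47 (SSZ1) times its lowest. SSB1/SSB2, SSZ1 and ZUO1 have their lowest point in rpl22aΔ replicate 2. The EGD1 and EGD2 order is opposite in the assays.

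Translational efficiency, the footprint level over the mRNA level, set the members apart from each other. On the log2 scale and relative to the median of 4897 rows in wild type, it was 1.47 for SSB1/SSB2, above 92.6% of rows. The 6 pairings of wild-type footprint and mRNA libraries gave 1.13 to 1.86 for that row. SSZ1 was at 1.25 (1.08 to 1.45 over the pairings) and EGD2 at 1.17 (0.95 to 1.36). Their dimer partners were lower: ZUO1 at 0.69 (0.62 to 0.77) and EGD1 at 0.31 (0.03 to 0.52). The partner ranges did not overlap in either dimer. The 96 rows with an RPL, RPS or RPP symbol and a number, which are cytosolic ribosomal protein genes except RPP1, an RNase P subunit, had a median of -0.40, below all 5 rows.

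Within each library, the ratio of dimer partners removes the scaling of the library. The ZUO1 to SSZ1 ratio in footprints was 1.40, 1.33 and 1.38 in wild type and 1.31, 1.44 and 1.29 in can1Δ. It was 1.26 and 1.48 in rpl22aΔ and 1.38 and 1.33 in tor1Δ, so RAC subunits kept between 1.26 and 1.48 (mean 1.36 ± 0.067, SD, n = 10). In mRNA the same ratio was 1.92 and 2.14 in wild type, 2.37 and 1.77 in can1Δ, 2.05 in rpl22aΔ and 1.83 in tor1Δ. Every mRNA library lay above every footprint library.

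The NAC subunits crossed over. EGD1 exceeded EGD2 in all 6 mRNA libraries, at a ratio of 1.53 and 1.56 in wild type, 1.64 and 1.32 in can1Δ, 1.24 in rpl22aΔ and 1.43 in tor1Δ. EGD1 was below EGD2 in all 10 footprint libraries, at 0.763 to 0.878 (mean 0.829 ± 0.037, SD, n = 10). The alpha and beta subunits are known to pair one to one, as are Zuo1 and Ssz1.

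The footprint ratio was lower than the mRNA ratio by 0.55 on the log2 scale for ZUO1 to SSZ1 (1.46-fold) and by 0.77 for EGD1 to EGD2 (1.71-fold), in 4 of 4 strains each. In an exact two-sided permutation test of assay labels within strains (900 regroupings), p was 0.00111 for each, also after Benjamini-Hochberg adjustment over both tests, and this is the smallest value the test can give. The pairs were chosen after their values were seen, so this p is not evidence for a trait of dimers. Other pairs of rows were not tested, and rows of unlike translational efficiency differ in this way by definition. How a gene's sequence is captured in footprint and mRNA libraries was not tested, and the footprint and mRNA libraries came from aliquots of the same lysates, which the test treats as separate.

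**Figure D2:**
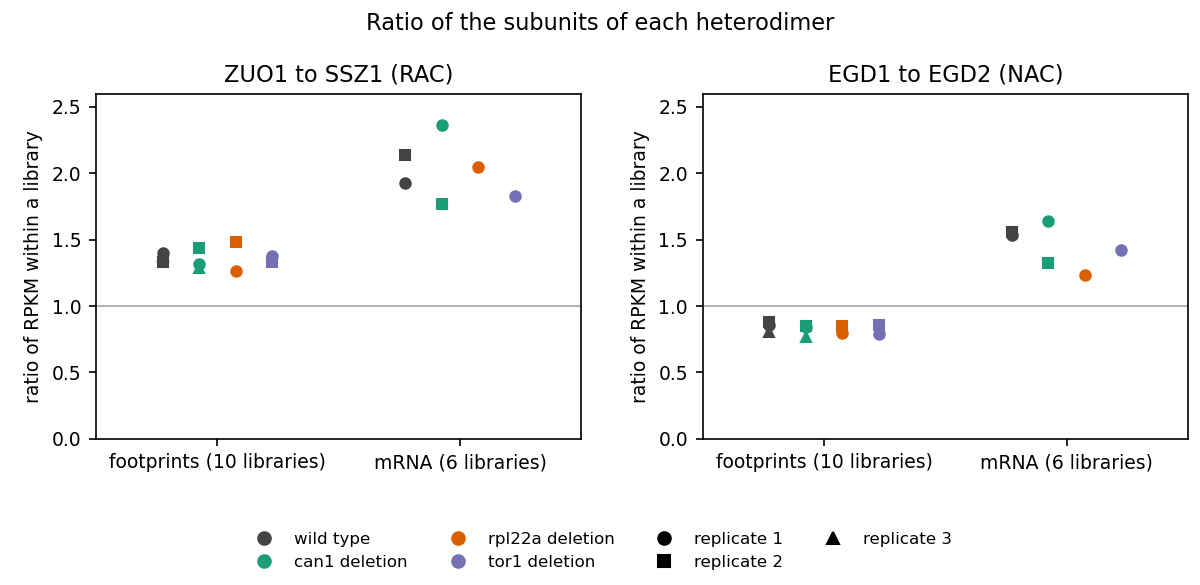
Ratio of RPKM within each library for ZUO1 to SSZ1 (left, the RAC subunits) and EGD1 to EGD2 (right, the NAC subunits), in 10 footprint and 6 mRNA libraries. Points are libraries coloured by strain and shaped by replicate number, and the line marks a ratio of 1. Footprint ratios lie at 1.26 to 1.48 and 0.763 to 0.878, below all mRNA ratios of 1.77 to 2.37 and 1.24 to 1.64.

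Between complexes the footprint ratios spread more, relative to their means, over all 10 libraries, but not within every strain. In wild type the sum of both Ssb copies to ZUO1 was 5.26 ± 0.077 (SD, n = 3). That is relatively tighter than ZUO1 to SSZ1 at 1.37 ± 0.033. Over the 10 libraries the sum of both Ssb copies was 5.23 ± 0.38 times ZUO1 (SD, n = 10, range 4.78 to 6.06). It was 2.67 ± 0.33 times EGD2 (range 1.96 to 3.02). EGD2 was 1.98 ± 0.24 times ZUO1 (range 1.80 to 2.62, the highest in rpl22aΔ replicate 2). In 12 exact permutation tests of 4 ratios in 3 deletions against wild type, none could go below p = 0.1, and the adjusted p was 0.3 or more. The largest move among the members' own ratios was EGD2 to ZUO1 in rpl22aΔ, at 2.03 and 2.62 against 1.80 to 1.98 in wild type (exact permutation p = 0.1, adjusted 0.3). Paired by replicate number, EGD1 to EGD2 was lower in can1Δ in 3 of 3 pairs, by a mean of -0.05 on the log2 scale. The exact two-sided sign-flip p was 0.25, the smallest that 3 pairs allow. The footprint levels of EGD1 (mean -0.08) and ZUO1 (mean -0.02) were also lower in 3 of 3 pairs, with the same p, and those of the other 3 rows were not. With 6 ratios and 5 levels paired in this way, none can pass an adjustment.

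In can1Δ, the deletion named in the study's title for its long lifespan, none of the 5 rows changed in footprints. SSB1/SSB2 held 2390, 2627 and 2689 scaled RPKM against 2602 to 2767 in wild type, and ZUO1 998, 1051 and 955 against 988 to 1053. The groups overlapped in every row. Log2 changes ran from -0.08 ± 0.13 (SE) for EGD1 to 0.01 ± 0.099 for SSZ1. Of all rows tested 0.224% were called (11 of 4900, limma with Benjamini-Hochberg adjusted p under 0.05), and 0 members had an unadjusted p under 0.05. The 95% intervals of the fold change ran from 0.782 to 1.147 for EGD1 and from 0.866 to 1.125 for ZUO1, so larger changes lie outside them. The levels were thus measured more tightly for ZUO1 than for EGD1.

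In can1Δ mRNA none of the 5 rows changed either, beside 1.38% of 5281 rows. That share was 0.284%, 2.92%, 0.189% and 0.0759% without wild-type replicate 1 or 2 or can1Δ replicate 1 or 2. Log2 changes were between -0.32 ± 0.31 (SSB1/SSB2) and -0.09 ± 0.29 (ZUO1). These intervals are wide: that of SSB1/SSB2 ran from 0.525-fold to 1.217-fold. Translational efficiency, tested as the interaction of assay and strain, changed in 0 of 5 rows, beside 0.0204% (1 of 4897), with log2 values from 0.07 to 0.27.

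In tor1Δ footprints 0 of 5 rows changed, beside 0.0408% of all rows (2 of 4900). SSB1/SSB2 held 2507 and 2504 scaled RPKM, both below the wild-type range, a log2 difference of -0.09 ± 0.11. EGD2 held 2155 and 1820, and its 0.06 ± 0.12 was the highest of the 5. In scaled RPKM the single tor1Δ mRNA library gave the highest mRNA value of all 6 libraries in each of the 5 rows: 1413 for SSB1/SSB2, 1514 for EGD1, 1062 for EGD2, 741 for ZUO1 and 404 for SSZ1. The share of all rows with their highest value in this library was not counted. Values of this library were divided by 0.894 in the scaling, and those of wild-type replicate 1 by 0.854. As deposited, ZUO1 (662) and SSZ1 (362) were not the highest, with up to 713 for ZUO1 and 381 for SSZ1 in can1Δ. None was called, beside 0.246% of 5281 rows. SSB1/SSB2 was at 0.46 ± 0.38 on the log2 scale (adjusted p = 1.00), and its translational efficiency at -0.55 ± 0.28 (adjusted p = 0.997), the lowest of the 5 rows. In tor1Δ 0 of 5 rows changed in translational efficiency, beside 0% of 4897 rows. Over all rows 75 had an unadjusted p under 0.05, and 0 of the 5 did. With 1 library, tor1Δ mRNA is assumed to vary like the other strains.

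**Figure D3:**
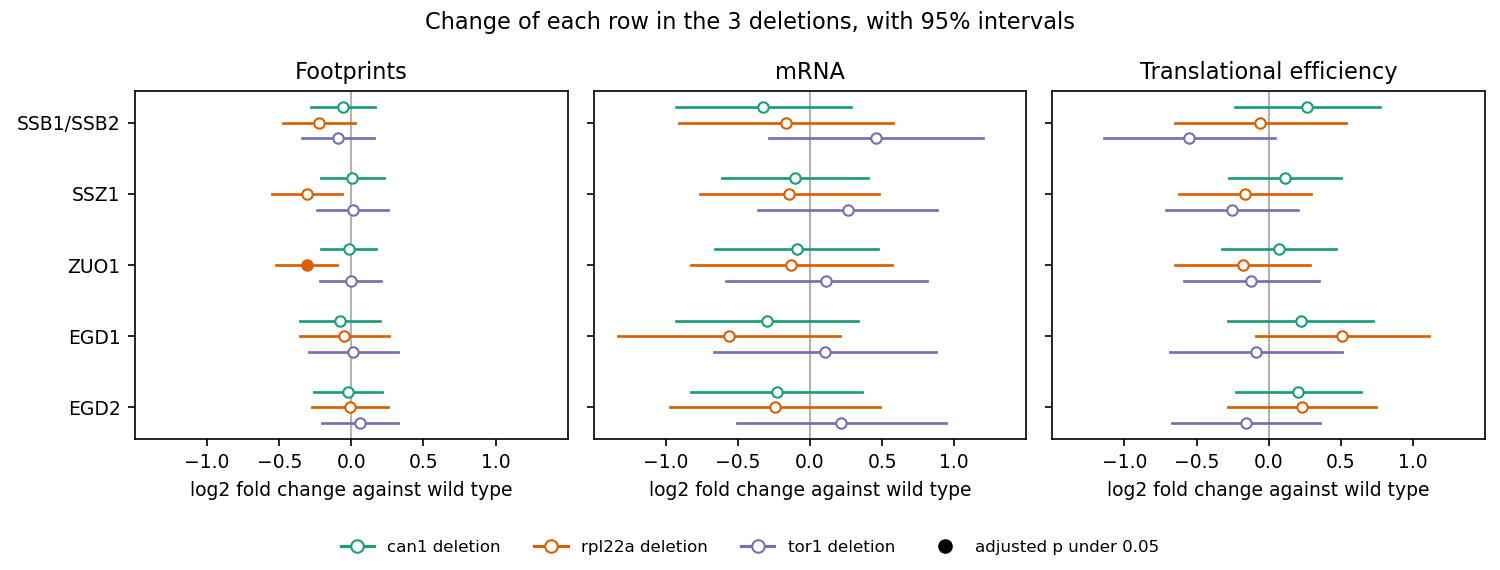
Log2 fold change of each row against wild type in footprints, mRNA and translational efficiency. Points are limma estimates, lines are 95% intervals, colours are the 3 deletions and a filled point marks an adjusted p under 0.05. The filled point is ZUO1 in rpl22aΔ footprints at -0.31, and mRNA intervals are wider than footprint intervals for every row.

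In rpl22aΔ footprints ZUO1 alone passed the test. In scaled RPKM both libraries lay below every wild-type library in the Ssb and RAC rows, and not in the NAC rows. The share of all rows that separate in this way was not counted. Over all 4900 rows 1678 had an unadjusted limma p under 0.05, and 2 of the 5 members did. ZUO1, the J protein, held 843 and 795 scaled RPKM, both below the wild-type 1004, 1053 and 988. It fell by 0.31 ± 0.096 on the log2 scale (0.807-fold, 95% interval 0.697 to 0.934, adjusted p = 0.0443). It was the 1 called row of 5, beside 19.2% of all rows (939 of 4900) called in either direction and 9.31% called lower. A share of 1 in 5 is close to that background.

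SSZ1 held 667 and 538 against 718, 790 and 717 in wild type, a log2 difference of -0.31 ± 0.11 that missed the threshold (adjusted p = 0.0760). Without rpl22aΔ replicate 1 SSZ1 passed it, at -0.46 (adjusted p = 0.0356). SSB1/SSB2 held 2552 and 2043, both below the wild-type range, at -0.22 ± 0.11 (adjusted p = 0.186). For these 3 rows the groups did not overlap in scaled RPKM, a separation not counted over all rows. In RPKM as deposited only ZUO1 stayed apart: in rpl22aΔ replicate 1 SSZ1 held 724, within the wild-type 693 to 742, and SSB1/SSB2 2770, above the wild-type 2513 to 2600. EGD1 held 1366 and 1773 and EGD2 1712 and 2084, in each case 1 library below and 1 above all wild-type libraries. Their log2 differences were -0.05 ± 0.14 and -0.01 ± 0.12, with 95% intervals of 0.780 to 1.197 and 0.828 to 1.192 in fold.

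The ZUO1 call was narrow. It was lost without any 1 of the 5 libraries, with an adjusted p of 0.0670, 0.137 and 0.0709 without wild-type replicate 1, 2 or 3, and 0.0854 and 0.204 without rpl22aΔ replicate 1 or 2. It was also lost without the library scaling, where ZUO1 was at -0.16 (adjusted p = 0.258), with a replicate block (adjusted p = 0.0505), without trended and robust variances (adjusted p = 0.0785) and with wild type and rpl22aΔ alone in the fit (adjusted p = 0.103). Over all rows the share called was 10.6% without rpl22aΔ replicate 1 and 6.78% without replicate 2. With unscaled RPKM the median of all rows moved by 0.138 and the called rows split into 886 higher and 293 lower, against 483 and 456.

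The libraries also differed by gene length, and the 2 rpl22aΔ libraries stood at one end. In each footprint library, the median log2 deviation of 660 rows of at least 2000 listed bases was set against that of 651 rows under 500 bases, all of at least 10 RPKM. The difference was -0.63 in rpl22aΔ replicate 2 and -0.26 in replicate 1, and -0.18 to 0.40 in the other 8 libraries. In replicate 2 the SSB1/SSB2, SSZ1 and ZUO1 rows had their lowest value of all 10 libraries, and the short EGD1 row its highest. By listed length the merged SSB1/SSB2 row (3484 bases for both copies) falls in the long set. SSZ1 (1517) and ZUO1 (1202) fall in neither set.

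**Figure D4:**
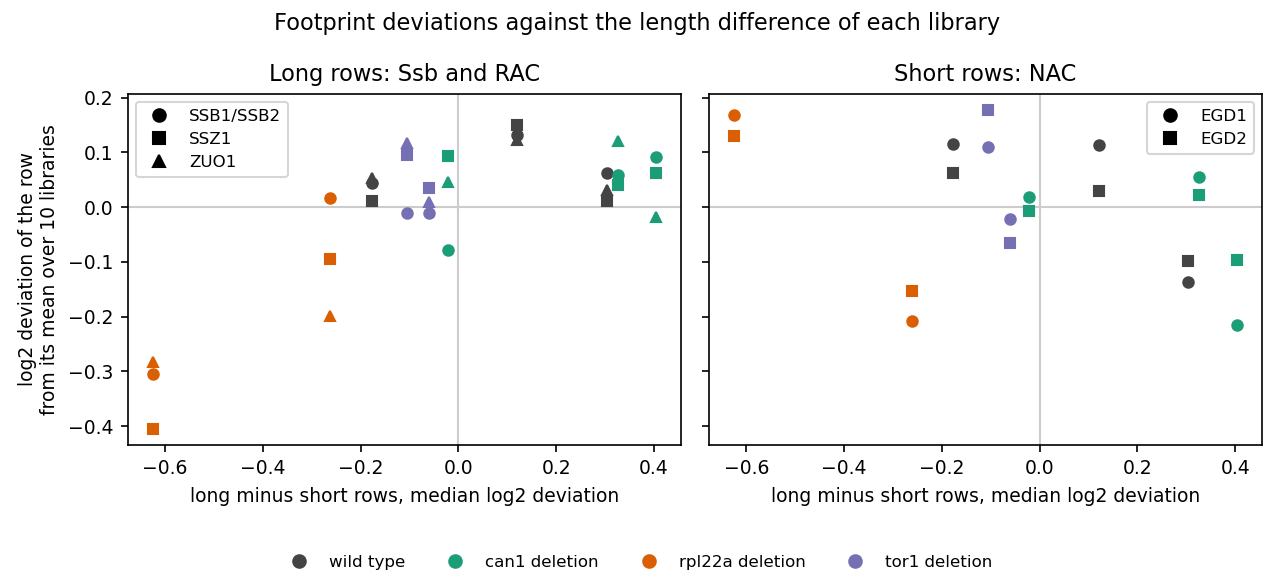
Log2 deviation of each row from its mean over 10 footprint libraries against the library's median difference between long and short rows, for SSB1/SSB2, SSZ1 and ZUO1 (left) and EGD1 and EGD2 (right). Points are libraries coloured by strain and shaped by row. The leftmost library, rpl22aΔ replicate 2 at -0.63, holds the lowest points on the left and the highest EGD1 point on the right.

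The rpl22aΔ changes were then set against rows of like length (within a factor of 1.25). The median log2 change of such rows was 0.33 around EGD1 and 0.30 around EGD2. It was 0.00 around ZUO1, -0.04 around SSZ1 and -0.05 around SSB1/SSB2. EGD1 and EGD2 thus lay at or above 16.2% and 21.1% of rows of their length, ZUO1 20.4%, SSZ1 23.7% and SSB1/SSB2 31.3%. With a length trend taken out of each library, EGD1 (-0.36, adjusted p = 0.0320) and ZUO1 (-0.31, adjusted p = 0.0287) passed the threshold. EGD2 was at -0.30 ± 0.10 (adjusted p = 0.0601), SSZ1 at -0.25 (adjusted p = 0.0860) and SSB1/SSB2 at 0.04. The trend used listed lengths, so the merged SSB1/SSB2 row was treated as 3484 bases long. The rows of like length were chosen at 1742 bases, the length per copy. A trend removed at 1742 bases was not tested for SSB1/SSB2, so its 0.04 may reflect the merged length. The part of length in these differences between strains was not tested further, and with 2 libraries it cannot be told apart from the strain.

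The single rpl22aΔ mRNA library gave 0 of 5 calls, beside 3.65% of 5281 rows. EGD1 held 955 scaled RPKM there, the lowest of the 6 mRNA libraries, at -0.56 ± 0.39 (adjusted p = 0.546). The other 4 rows were between -0.24 and -0.13. In translational efficiency 0 of 5 rows changed, beside 0% of 4897 rows, although 692 rows had an unadjusted p under 0.05. EGD1 was the highest of the 5, at 0.51 ± 0.28 (adjusted p = 0.414), and ZUO1 the lowest at -0.18 ± 0.22. With the length trend removed EGD1 was at 0.05 and SSB1/SSB2, at 0.38, was the highest, none of them called. The 0.38 also rests on the merged listed length of SSB1/SSB2.

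The deletions were also set against each other. ZUO1 was lower in rpl22aΔ than in can1Δ by a log2 difference of -0.29 ± 0.096 (adjusted p = 0.0493), the 1 called row of 5, beside 23.6% of all rows. SSZ1 was at -0.31 ± 0.11 (adjusted p = 0.0603). Between rpl22aΔ and tor1Δ 0 of 5 rows were called, beside 14.4%, with ZUO1 at -0.30 (adjusted p = 0.0774) and SSZ1 at -0.32 (adjusted p = 0.106). Between can1Δ and tor1Δ it was 0 of 5, beside 0.184%, and 0 of 5 had an unadjusted p under 0.05. The comparisons share libraries and are not independent.

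Other parts of the folding machinery were counted in the same rpl22aΔ footprint comparison. Unlike the members, these rows were not set against rows of like length. Of 8 tested rows of the cytosolic Hsp70 system, which acts on chains after and beside Ssb, 6 fell and 1 rose, with a median of -0.78 against 0.03 over all rows, of which 9.31% were called lower and 19.2% in either direction. SSA1/SSA2, the main cytosolic Hsp70s, fell by 1.41 ± 0.11 (adjusted p = 3.74e-05). SSA4, a stress-induced Hsp70, fell by 1.84 ± 0.20 (adjusted p = 0.000152), and SSE2, an exchange factor for Hsp70, by 1.32 ± 0.16 (adjusted p = 0.000373). SNL1, an exchange factor anchored in the membrane, rose by 0.94 ± 0.11 (adjusted p = 0.000294).

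The Ssa and Ssb levels were also set against each other within each library, a ratio chosen after its values were seen. The ratio of SSA1 plus SSA2 to SSB1 plus SSB2 in footprints was 1.08, 1.09 and 1.02 in wild type, 0.390 and 0.556 in rpl22aΔ, and 0.775 and 0.816 in tor1Δ. In can1Δ it was 0.902, 0.987 and 0.931. In rpl22aΔ footprints the log2 change was -1.41 for SSA1/SSA2 and -0.22 for SSB1/SSB2. All 7 deletion libraries lay below all 3 wild-type libraries in the ratio, and how often ratios of other rows do so was not counted. The exact permutation p was 0.1 in each deletion, the smallest it could be (adjusted p = 0.3 over 12 tests). In mRNA the ratio was 0.632 and 0.642 in wild type, 0.576 and 0.661 in can1Δ, 0.356 in rpl22aΔ and 0.373 in tor1Δ.

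Among 10 other factors that meet the nascent chain, 2 rose and 1 fell in rpl22aΔ footprints, with a median of 0.12, beside the 19.2% of all rows called. NAT1, a subunit of the main N-terminal acetyltransferase, fell by 0.45 ± 0.12 (adjusted p = 0.0217). MAP1, a methionine aminopeptidase, rose by 0.33 ± 0.095 (adjusted p = 0.0354), and NAT4, which acetylates histones, rose by 0.72 ± 0.23 (adjusted p = 0.0459). BTT1, on this list, held 13.3 and 17.4 scaled RPKM against 10.01 to 11.98 in wild type, at 0.47 ± 0.23 (adjusted p = 0.186). In rpl22aΔ mRNA it was at 0.91 ± 0.30 (adjusted p = 0.0638), from 79 reads. BTT1 passed the threshold in none of the 12 comparisons.

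Of 14 rows of prefoldin and the TRiC chaperonin, which fold actin and tubulin, 2 rose and none fell, again beside 19.2% of all rows, which holds for each list count in this comparison. These were the prefoldin subunits PAC10 (0.44 ± 0.12, adjusted p = 0.0256) and GIM3 (0.64 ± 0.18, adjusted p = 0.0306). Of 13 ribosome quality control rows 1 fell, CDC48, the unfoldase that extracts stalled chains, at -0.36 ± 0.087 (adjusted p = 0.0151). None of the 8 rows of the signal recognition particle and its receptor was called, and none of the 9 rows of ribosomal proteins around the tunnel exit, where the chaperones dock (median 0.24). Of the 96 RPL, RPS and RPP rows 4 rose and 9 fell, RPL22A included, a smaller share than the 19.2% of all rows. RPL22B, the paralog of the deleted gene, rose by 2.29 ± 0.16 (adjusted p = 2.17e-05), while the stalk proteins RPP2B and RPP0 were at -1.91 and -0.94. In can1Δ and tor1Δ footprints no row of these 7 lists was called. In mRNA the list of RPL, RPS and RPP symbols alone held calls, RPS28B in can1Δ at -1.27 and, in rpl22aΔ, RPL22A at -8.81, RPL22B at 1.46 and RPS22B at -1.34.

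The members varied less than most rows of their level in footprints. Over the 10 footprint libraries the SD of log2 scaled RPKM was 0.11 for EGD2, 0.12 for SSB1/SSB2, 0.14 for ZUO1, 0.14 for EGD1 and 0.16 for SSZ1. The median over the 240 rows with at least 500 RPKM was 0.21, and 18 of these rows varied less than EGD2 and 57 less than SSZ1. Over the 6 mRNA libraries it was 0.13 for ZUO1, 0.20 for EGD2, 0.28 for EGD1 and 0.34 for SSB1/SSB2, against a median of 0.34 over 195 rows of at least 500 RPKM. SSZ1, which lies under that level, was at 0.16.

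Subunits of 1 dimer had like patterns over libraries, but such likeness was not particular to dimers. Over the 10 footprint libraries Pearson's r of log2 levels was 0.90 between EGD1 and EGD2 and 0.89 between SSZ1 and ZUO1, and 0.88 and 0.81 without rpl22aΔ replicate 2. Between SSB1/SSB2 and SSZ1 it was 0.82, and 0.14 without that library. Between SSB1/SSB2 and ZUO1 it was 0.69, and 0.16 without it. RAC and NAC rows moved up without that library: from 0.19 to 0.80 for ZUO1 and EGD1, and from 0.17 to 0.77 for ZUO1 and EGD2. For SSZ1 r rose from -0.16 to 0.59 with EGD1 and from -0.17 to 0.60 with EGD2. The libraries behind these values share strains and differ in the long-minus-short difference given above. EGD2 was the second most similar of 1468 rows to EGD1, after TPM1 (0.90), which encodes tropomyosin, and before RPL33B (0.88).

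Other rows were ranked by their r with each member over the same libraries. For EGD2 the most similar rows were CPR3 (0.93), a mitochondrial peptidyl-prolyl isomerase, MRP2 (0.92), a mitochondrial ribosomal protein, and EGD1. For SSB1/SSB2 they were MNN2 (0.92), a mannosyltransferase, TUB2 (0.92), beta-tubulin, and NFS1 (0.91), a cysteine desulfurase. For SSZ1 they were NIP1 (0.97), a subunit of initiation factor eIF3, CRS1 (0.94), a tRNA synthetase, and NAT1 (0.93). For ZUO1 they were RRP9 (0.96), a factor of ribosomal RNA processing, GLN4 (0.96), a tRNA synthetase, and COX4 (0.96), a subunit of cytochrome c oxidase. Listed lengths of these rows ran from 224 bases (RPL33B) to 2465 (NAT1).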

How the data were processed

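Footprint and mRNA libraries were grouped by the sample labels. Per the submitters' processing notes, Bowtie 1.1.2 and genome build R64 were used. The authors deposited, per the file headers, a name, a length and RPKM for each row. The sources used here do not state how multiply matching reads were treated. For 5408 of 5456 single genes the listed length was 100 bases below the coding length. Read numbers and totals were worked out from the steps of low RPKM values (tolerance 0.05 reads, values of up to 50 reads). For 3 libraries, which fitted the mean of 2 runs, read numbers are approximate. Gene names and sequences came from the RefSeq annotation of R64 (5570 of 5574 rows matched).

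RPKM was scaled within each assay by the TMM method (trimming 30% of rows by fold and 5% by level). Tests were limma 3.58.1 (trend, robust; R 4.3.3) on log2(scaled RPKM + 1), which understates changes of low genes, with Benjamini-Hochberg adjustment over all rows and a threshold of 0.05. Rows needed the level of 10 reads in 2 footprint or 1 mRNA libraries and 15 reads in total, which left 4900 and 5281 rows, and 4897 for translational efficiency. For mRNA, genes of like level share nearly 1 variance (median prior degrees of freedom 10560, against 11.1 for footprints). The rpl22aΔ footprint comparison was tested on simulated footprint data, and the mRNA and translational efficiency fits were not.

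The same replicate numbers of wild-type and can1Δ footprint libraries deviated together over 3623 genes (correlations 0.662, 0.243 and 0.435), so the numbers pair them; with a replicate block, 0 of 5 rows were called in can1Δ, as without. Alternatives were the scaling, the pseudocount, the filter, the variance model, a length trend removed, the replicate block, 2 strains alone and each library left out. Added after seeing the data: ratios per full coding length, and can1Δ ratios and levels paired by replicate number.

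Named are the 6 members in every comparison, BTT1, the deleted genes, up to 4 called rows of smallest p from each of 7 lists in comparisons with wild type, and the 3 rows most like each member by Pearson correlation among rows of at least 50 RPKM. The members and lists were chosen with earlier results of these data known. List members that were called only between deletions are not named. The SSA1/SSA2 to SSB1/SSB2 ratio was chosen after its values were seen.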

Additional observations from a re-analysis of the deposited data

Results flagged for a closer look

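ZUO1 footprints differed between deletions. Its log2 level was lower in rpl22aΔ than in can1Δ by a limma estimate of -0.29 ± 0.096 (SE, adjusted p = 0.0493), with rpl22aΔ at 843 and 795 scaled RPKM and can1Δ at 998, 1051 and 955. It is listed because the difference between 2 strains was itself tested and passed the threshold. Of all rows 23.6% did so in this comparison. The call was lost without any 1 of the 5 libraries (adjusted p from 0.0659 without can1Δ replicate 1 to 0.231 without rpl22aΔ replicate 2).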

How the results depend on the processing

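In rpl22aΔ footprints the count of called rows was 1 of 5, 0 with unscaled RPKM, without trended and robust variances, with the replicate block and with 2 strains alone, and 2 with the length trend removed. Leaving out 1 library gave 0 to 1. ZUO1 ran from -0.35 to -0.27 in those fits. Against can1Δ the count was 1, and 0 under the same settings and at a pseudocount of 10 RPKM, 2 with median-of-ratios scaling, 3 with the length trend removed, and 0 to 1 without 1 library. Against tor1Δ it was 1 with the length trend removed and 0 to 1 without 1 library. In the other 9 comparisons the count stayed at 0 of 5 in every setting run. The cause of these differences was not tested.

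Some values changed sign, none of them called in either fit. The farthest from 0 as reported were 0.27 for SSB1/SSB2 in can1Δ translational efficiency, -0.24 for EGD2 in rpl22aΔ mRNA, 0.23 for EGD2 in rpl22aΔ translational efficiency and -0.22 for SSB1/SSB2 in rpl22aΔ footprints. With unscaled RPKM, footprints gave ZUO1 0.029 and EGD2 0.023 in can1Δ, EGD1 0.10 and EGD2 0.14 in rpl22aΔ, and ZUO1 0.043 in tor1Δ. The mRNA gave SSZ1 0.12 and ZUO1 0.13 in can1Δ, and SSB1/SSB2 0.10, SSZ1 0.13, ZUO1 0.14 and EGD2 0.030 in rpl22aΔ. Translational efficiency gave SSZ1 -0.062 and ZUO1 -0.10 in can1Δ and EGD1 0.0099 in tor1Δ. With the length trend removed, footprints gave EGD1 0.026 and EGD2 0.066 in can1Δ, SSB1/SSB2 0.039 in rpl22aΔ, and ZUO1 0.0015, EGD1 -0.078 and EGD2 -0.025 in tor1Δ. Translational efficiency in rpl22aΔ gave SSB1/SSB2 0.38 and EGD2 -0.20. The SSB1/SSB2 values with the trend removed rest on its merged listed length, 3484 bases. With the replicate block, tor1Δ footprints gave SSZ1 -0.0039 and EGD1 -0.071.

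Leaving out 1 library moved can1Δ footprints within -0.015 to 0.054 (SSZ1), -0.055 to 0.014 (ZUO1), -0.16 to 0.0061 (EGD1) and -0.073 to 0.0099 (EGD2). In rpl22aΔ footprints EGD1 ran from -0.24 to 0.14, EGD2 from -0.16 to 0.13 and SSZ1 from -0.46 to -0.16. In tor1Δ footprints SSZ1 ran from -0.022 to 0.055, ZUO1 from -0.060 to 0.049, EGD1 from -0.070 to 0.080 and EGD2 from -0.063 to 0.18. In mRNA ZUO1 ran from -0.25 to 0.064 in can1Δ and SSB1/SSB2 from -0.44 to 0.11 in rpl22aΔ. In translational efficiency SSB1/SSB2 ran from -0.010 to 0.54 and ZUO1 from -0.084 to 0.23 in can1Δ, SSB1/SSB2 from -0.34 to 0.22 in rpl22aΔ and EGD1 from -0.18 to 0.0036 in tor1Δ.

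Over all rows, 939 calls in rpl22aΔ footprints became 518 and 332 without its replicate 1 or 2. In can1Δ footprints 11 became 29 with the block and 2 strains alone. In can1Δ mRNA 73 became 6 with the length trend removed, 30 without the filter, 46 without trended and robust variances, 132 with the block and 4 to 154 without 1 library. In rpl22aΔ mRNA 193 became 56 to 117 across 5 settings, and in tor1Δ mRNA 13 became 3 to 23. Unscaled RPKM moved the median by 0.21 in can1Δ mRNA (46 higher and 6 lower, against 47 and 26) and by 0.25 in rpl22aΔ mRNA (73 and 44, against 67 and 126). Per full coding length, the ratio of both Ssb copies to EGD2 in wild type was 3.28 instead of 2.81 and EGD2 to ZUO1 1.64 instead of 1.88. Numbers paired wild type with can1Δ footprints alone: same-number correlations were -0.336 and -0.115 for rpl22aΔ, -0.0166 and 0.0251 for tor1Δ, and 0.0987 for can1Δ mRNA. The block changed no other call of a member. Depth does not limit the members, which had at least 1332 reads in every library, and it limits BTT1.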
